A study of Mus musculus with 10 samples.

Results

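The 10 genes described here are muscle genes read in cultured mouse embryonic fibroblasts (MEF), and they make up 10 of the 13242 genes tested on these arrays. They are Myod1, Myog, Myl1, Mylpf, Actc1, Tnnt2, Des, Acta2, Tagln and Cnn1, and every probe set that the platform annotation gives to exactly these symbols was taken, 16 in all. The genes were chosen with their fibroblast signals already known, so their differences between MEF and the stem cells are descriptions and carry no test. Of the 10 genes, 9 had higher signals in MEF than in either kind of stem cell, while Mylpf was lower in MEF.

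The study hybridised RNA of 3 groups of sorted mouse cells to Affymetrix GeneChip 430 2.0 arrays, 10 arrays in all. The MEF group held 2 arrays of wild-type fibroblasts at passage 2, each from a male d13.5 embryo (B6D2F1), sorted from the 2n peak. The AG-haESC group held 5 arrays, each of another line of androgenetic haploid embryonic stem cells, which carry a paternal genome only. These lines were of C57BL/6J background at passages 12 to 15 and were sorted from the 1n peak. Replicates 1, 2, 4 and 5 carried an Oct4-EGFP transgene and replicate 3 an Actin-EGFP transgene, and they were grown on feeders with CHIR99021 and PD0325901, a GSK3 and a MEK inhibitor. The E14 group held 3 arrays of a wild-type male line of diploid embryonic stem cells, strain 129/Sv, at passage 17, also sorted from the 2n peak. The DNA stain used for sorting was Hoechst 33342 (15 µg/ml). The sources used here do not give whether the MEF arrays share an embryo, nor the medium of MEF and E14. Between groups the cells differ in strain and passage at once. MEF differ from both stem cell groups in cell type, and AG-haESC from both other groups in ploidy and paternal-only genome. The design cannot tell these apart, nor any difference in culture. P-values measure the spread between these arrays, and for E14 that spread is within 1 line.

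Skeletal muscle is built by myogenic regulatory factors, basic helix-loop-helix proteins that bind E-boxes and switch on the genes of the sarcomere, the contractile unit of striated muscle. Smooth muscle cells have no sarcomeres and make their own actin with calponin and transgelin, under serum response factor (SRF), which binds the CArG box, and its partners of the myocardin family. Cultured fibroblasts that take on a contractile state, called myofibroblasts, use the same smooth muscle actin, and smooth muscle actin and heart actin are also made for a time in the embryo by developing skeletal muscle.

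Promoters are shown because these sites are the classical inputs of both programmes. RefSeq starts on GRCm38.p6 were given for 8 of the 10 genes, all but Tagln and Myod1. The 250 bases before the start were searched on both strands for the CArG box, for the E-box CAGCTG, which reads alike on both strands, for the MEF2 box and for TATAAA. The MEF2 box and TATAAA can share bases. Capitals mark CArG boxes and CAGCTG, and each sequence runs 5′ to 3′ on the gene's strand.
Myl1, chr1:66945057-66945306, minus strand: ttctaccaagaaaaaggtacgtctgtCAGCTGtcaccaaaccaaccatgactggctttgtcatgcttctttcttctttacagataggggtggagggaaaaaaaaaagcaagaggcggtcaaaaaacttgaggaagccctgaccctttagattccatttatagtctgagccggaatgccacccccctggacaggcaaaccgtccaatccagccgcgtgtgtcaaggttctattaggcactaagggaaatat
Mylpf, chr7:127211358-127211607, plus strand: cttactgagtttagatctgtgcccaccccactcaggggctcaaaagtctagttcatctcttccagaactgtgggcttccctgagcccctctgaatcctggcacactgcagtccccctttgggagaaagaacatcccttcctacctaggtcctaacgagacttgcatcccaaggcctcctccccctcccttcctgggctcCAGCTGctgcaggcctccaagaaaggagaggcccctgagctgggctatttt
Actc1, chr2:114052876-114053125, minus strand: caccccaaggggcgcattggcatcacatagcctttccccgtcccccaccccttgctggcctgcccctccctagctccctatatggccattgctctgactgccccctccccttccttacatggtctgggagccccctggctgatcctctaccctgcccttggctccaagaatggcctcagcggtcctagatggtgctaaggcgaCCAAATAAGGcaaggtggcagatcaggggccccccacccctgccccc
Acta2, chr19:34255374-34255623, minus strand: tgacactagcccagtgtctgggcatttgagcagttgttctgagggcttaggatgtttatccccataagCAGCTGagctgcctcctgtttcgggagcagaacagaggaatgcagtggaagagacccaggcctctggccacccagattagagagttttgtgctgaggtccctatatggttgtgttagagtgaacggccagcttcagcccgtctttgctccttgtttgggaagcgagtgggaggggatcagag
Des, chr1:75360042-75360291, plus strand: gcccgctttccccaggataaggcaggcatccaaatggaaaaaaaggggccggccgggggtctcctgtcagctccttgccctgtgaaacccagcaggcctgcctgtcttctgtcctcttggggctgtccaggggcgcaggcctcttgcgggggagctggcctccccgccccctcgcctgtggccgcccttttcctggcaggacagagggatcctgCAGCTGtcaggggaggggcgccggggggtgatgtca
An exact CArG box was found in 1 of the 8 genes, Actc1, where it began 47 bases before the start, and 1.47% of all 32851 promoters in the table hold one. With at most 1 other letter allowed, a search added after the values were seen, it was found in 5 of 8 genes (Myl1, Mylpf, Actc1, Acta2 and Tnnt2), against 18.6% of all promoters. CAGCTG was found in 5 of 8, beginning 224 bases before the start in Myl1, 51 in Mylpf, 182 in Acta2, 36 in Des, and 223 and 157 before 1 of the 2 listed starts of Tnnt2, and 13% of all promoters hold it. TATAAA was found in Myl1, against 12.4% of all promoters, and its letters there lie inside the CArG match of Myl1 with 1 other letter. An exact MEF2 box was found in none of the 8, against 2.92%. No other letter was allowed for the MEF2 box, and Myog holds ctatatttat, which differs from it in the last letter. These matches are descriptions of letters, and they do not separate Mylpf, which was lower in MEF, from the genes that were higher.

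Signals are given as log2 of the deposited intensity. Each array had a 2% trimmed mean of 500 on the linear scale, and array medians lay between 56.2 and 68.2, which is between 5.81 and 6.09 on the log2 scale. A signal below its own array's median is taken here as not above background. Where no array of the dimmer group exceeded its median, that group was put at the array medians and the difference is written as "at least". Of the 16 probe sets of the 10 genes, 12 passed the filter, which asked for a signal above the array's median in at least 2 arrays. All 10 genes kept at least 1 probe set, and a gene that passed only through the MEF arrays had to be brighter there. In bulk RNA, more cells of a type and more RNA per cell cannot be told apart.

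The label of the fibroblasts was checked against marker genes. All 15 of 15 tested fibroblast markers lay above the array median in both MEF arrays, and their summed linear signal was 206895 and 175057 in MEF, against 18132 to 25263 in AG-haESC and 15994 to 19916 in E14. Of 8 pluripotency markers, 7 were below the array median in both MEF arrays, and all 8 were above it in every stem cell array. Markers of other cell types were read as well. Tested genes had to exceed the median in at least 2 arrays, so counts above it are descriptions only. All 12 macrophage markers lay above the median in both MEF arrays, with sums of 7041 and 6584 against 591 to 745 in AG-haESC and 613 to 774 in E14. Of 8 pericyte markers 6 did so, with sums of 12542 and 12609 against 643 to 1459 in AG-haESC and 1045 to 2371 in E14. Endothelial markers did so in 4 of 8, with sums of 1177 and 1382 against 704 to 1206 in AG-haESC and 894 to 1032 in E14. The endothelial sums of MEF and AG-haESC thus overlapped, and Esam, Pecam1 and Tek lay below the median in both MEF arrays. The part of these cell types in the muscle signals was not tested.

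**Figure D1:**
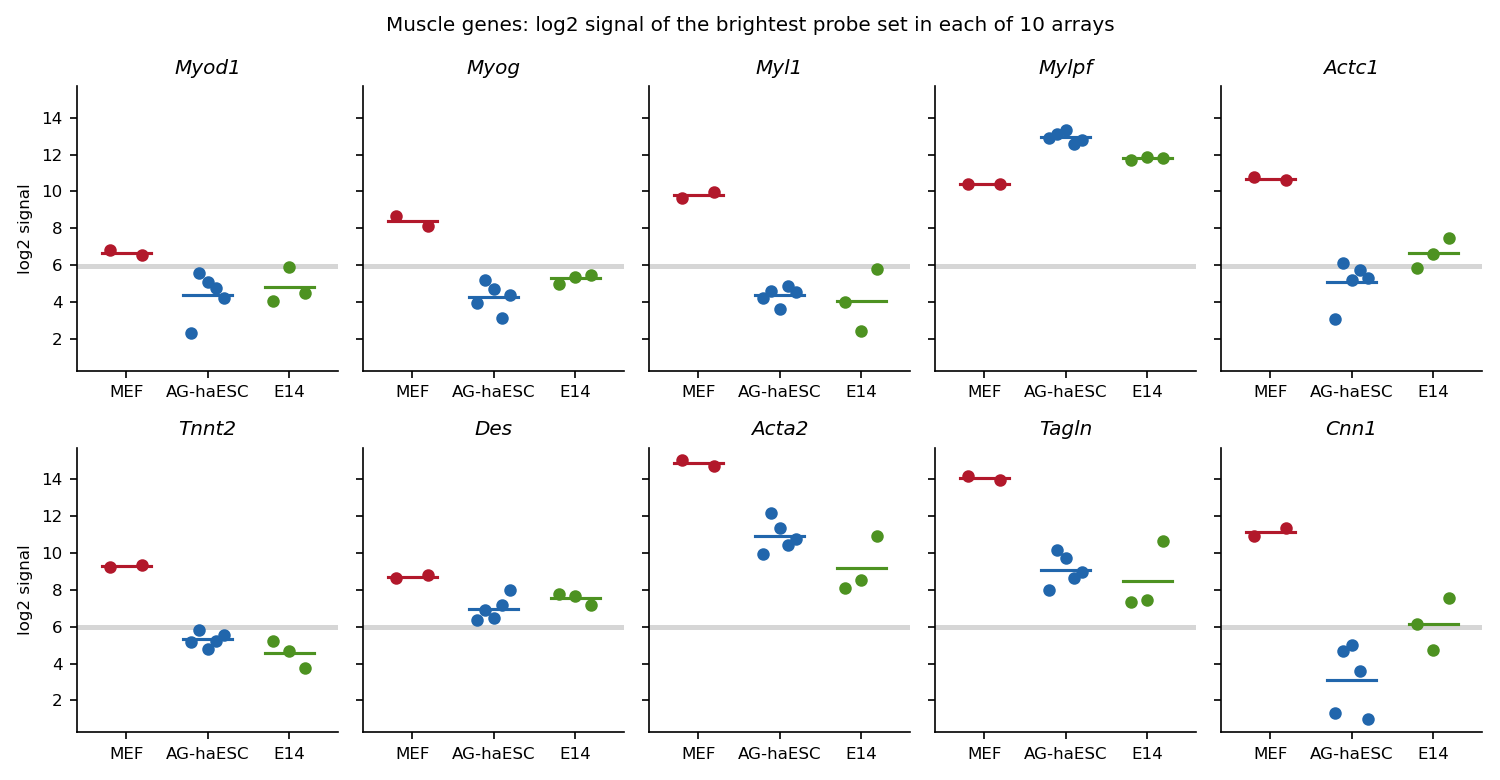
Each panel plots 1 gene, with the log2 signal of its brightest probe set on the vertical axis and the MEF, AG-haESC and E14 arrays side by side, 1 point per array. In 9 panels both MEF points lie above all stem cell points, and in the Mylpf panel they lie below them.

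Myod1, the first of the skeletal regulators, encodes the factor that commits cells to the skeletal muscle fate. Its brightest probe set read 6.82 and 6.54 in MEF, against 2.29, 5.56, 5.08, 4.76 and 4.24 in AG-haESC and 4.08, 5.87 and 4.49 in E14. Both MEF arrays were above their medians and no stem cell array was, so the difference was at least 1.65-fold over AG-haESC and at least 1.56-fold over E14. The other probe set of Myod1 was not above background on enough arrays to be kept, with -0.15 and 3.70 in MEF against -1.11 to 3.87 in AG-haESC and 0.56 to 4.51 in E14. The MEF signal of Myod1 thus rested on 1 probe set close to the array median.

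Myog encodes myogenin, the factor that drives committed myoblasts to differentiate. It read 8.66 and 8.13 in MEF, against 3.94, 5.21, 4.73, 3.11 and 4.39 in AG-haESC and 5.0, 5.34 and 5.49 in E14. The MEF arrays stood well clear of every stem cell array, all of which were below their medians. MEF was at least 5.39-fold higher than AG-haESC and at least 5.10-fold higher than E14. The stem cell groups overlapped.

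Among the sarcomere genes, Myl1 encodes the essential (alkali) myosin light chain of fast skeletal fibres. It read 9.63 and 9.98 in MEF, against 4.20, 4.58, 3.61, 4.87 and 4.56 in AG-haESC and 4.03, 2.40 and 5.77 in E14. MEF was at least 14.4-fold higher than AG-haESC and at least 13.6-fold higher than E14, and the stem cell arrays lay below their medians and overlapped.

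Mylpf encodes the regulatory light chain of the same fast myosin, and it went the other way. It read 10.39 and 10.43 in MEF, against 12.92, 13.12, 13.36, 12.57 and 12.77 in AG-haESC and 11.71, 11.85 and 11.82 in E14. All 10 arrays were far above their medians and no groups overlapped, with AG-haESC highest and MEF lowest. The difference was -2.54 for MEF minus AG-haESC and -1.38 for MEF minus E14 on the log2 scale. Of the light chains of the fast fibre read here, Myl1 was thus higher and Mylpf lower in MEF.

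Actc1 encodes the actin of heart muscle, which embryonic skeletal muscle also makes. It read 10.76 and 10.61 in MEF, against 3.08, 6.10, 5.17, 5.75 and 5.32 in AG-haESC and 5.85, 6.60 and 7.46 in E14. The MEF arrays were above all others, by 5.60 over the AG-haESC mean and 4.05 over the E14 mean on the log2 scale. Of the stem cell arrays, 1 of 5 AG-haESC and 2 of 3 E14 arrays exceeded their median. Actins are close copies of each other, and how far this probe set also reads another actin was not tested.

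Tnnt2 encodes the troponin T of heart muscle, which embryonic skeletal muscle also makes, and it had 3 probe sets. The brightest read 9.25 and 9.37 in MEF, against 5.16, 5.84, 4.77, 5.22 and 5.53 in AG-haESC and 5.22, 4.70 and 3.77 in E14, at least 10.2-fold over AG-haESC and at least 9.64-fold over E14. The other kept probe set read 9.79 and 10.06 in MEF, against 5.09, 5.36, 5.13, 5.14 and 5.37 in AG-haESC and -0.92, 3.54 and 4.36 in E14, at least 15.6-fold and 14.8-fold. Both kept probe sets were thus high in MEF and below the median in every stem cell array. The third was not kept, and read 2.92 and 2.86 in MEF, against 1.69 to 5.36 in AG-haESC and 2.72 to 3.77 in E14.

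Des encodes desmin, the intermediate filament of skeletal, heart and smooth muscle. Its brightest probe set read 8.66 and 8.78 in MEF, against 6.36, 6.91, 6.47, 7.18 and 7.98 in AG-haESC and 7.80, 7.65 and 7.18 in E14. Every array was above its median on this probe set, which alone does not show that desmin RNA was present in the stem cells. The MEF arrays lay above the others by 1.74 over AG-haESC and 1.18 over E14 on the log2 scale. The other probe set was not kept and did not show the difference, with 2.98 and 3.0 in MEF, against 1.77 to 5.30 in AG-haESC and 2.29 to 5.50 in E14.

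Of the smooth muscle genes, Acta2 encodes smooth muscle actin, the usual mark of smooth muscle and of myofibroblasts. It read 15.02 and 14.72 in MEF, against 9.94, 12.17, 11.35, 10.42 and 10.75 in AG-haESC and 8.10, 8.53 and 10.90 in E14. MEF was higher by 3.95 over AG-haESC and 5.70 over E14 on the log2 scale, and all stem cell arrays were above their medians too. Another kept probe set read 8.43 and 8.74 in MEF, against 0.87, 3.80, 1.45, 1.41 and 1.46 in AG-haESC and 1.36, 0.63 and 1.96 in E14, at least 6.16-fold and at least 5.82-fold. It was below the median in every stem cell array, unlike the brightest probe set. The third probe set was not kept, with 5.62 and 4.96 in MEF, against 1.48 to 4.70 in AG-haESC and 2.18 to 4.95 in E14.

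Tagln encodes transgelin (SM22), an actin-binding protein of smooth muscle. It read 14.19 and 13.95 in MEF, against 8.0, 10.15, 9.71, 8.64 and 8.99 in AG-haESC and 7.36, 7.43 and 10.67 in E14. MEF was higher by 4.98 over AG-haESC and 5.58 over E14 on the log2 scale. As with Acta2, E14 replicate 3 stood above the other E14 arrays, and AG-haESC replicate 2 was the highest of its group.

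Cnn1 encodes calponin, which binds actin and slows the actomyosin of smooth muscle. It read 10.90 and 11.35 in MEF, against 1.30, 4.68, 5.03, 3.59 and 0.97 in AG-haESC and 6.17, 4.75 and 7.57 in E14. No AG-haESC array was above its median, which made MEF at least 35.9-fold higher, and MEF was higher by 4.96 than E14 on the log2 scale. E14 replicate 3 was again the highest of its group.

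**Figure D2:**
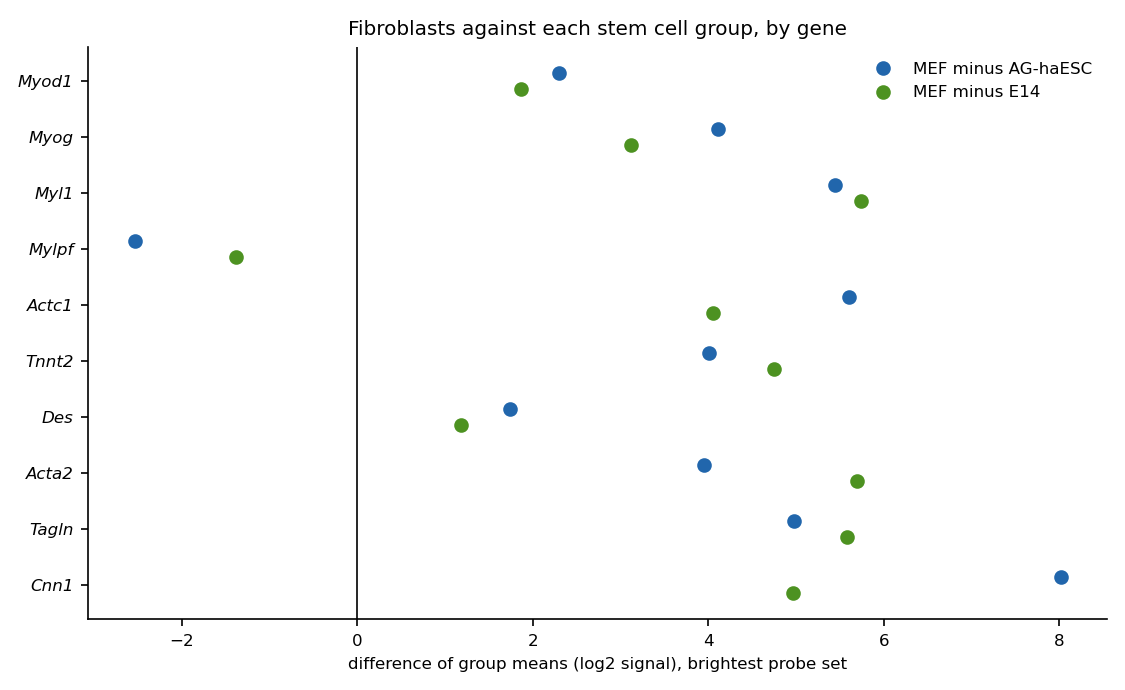
For each gene the horizontal axis gives the difference of group means in log2 signal, MEF minus AG-haESC and MEF minus E14, for the brightest probe set. The points lie right of 0 for 9 genes and left of 0 for Mylpf.

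Over the brightest probe sets, the median difference of the 10 genes was 4.06 for MEF minus AG-haESC and 4.40 for MEF minus E14, beside medians of -0.0045 and -0.080 over all 13242 genes. Both comparisons use the same MEF arrays. In 9 of 10 genes both MEF arrays lay above every AG-haESC array, and in the same 9 above every E14 array. Over all genes this held for 35.7% against AG-haESC and also for 35.7% against E14, and the position of Mylpf, below every array of the other group, for 34.6% and 38.2%, and since the genes were chosen on these contrasts nothing is read from the count. The MEF arrays differed from each other by little, between -0.45 for Cnn1 and 0.53 for Myog (replicate 1 minus replicate 2, log2).

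The difference between the kinds of stem cell was not used to choose the genes and was tested with limma. Of the 10 genes 1 was called, Mylpf, where a call asks for an adjusted p below 0.05 over all genes and a difference of at least 2-fold. Over all genes 8.33% were called in this comparison. Its mean was 12.95 ± 0.307 over the AG-haESC lines (SD, n = 5) and 11.79 ± 0.075 over the E14 arrays (SD, n = 3). They differed by 1.15 ± 0.157 (SE) on the log2 scale with limma's adjusted p = 0.000732. All 5 AG-haESC arrays lay above all 3 E14 arrays, as for 9.88% of all genes, while 12.8% had all E14 arrays above all AG-haESC arrays and 22.7% did not overlap in either direction. The call held under every alternative tried, with differences of 1.05 to 1.25 and limma's adjusted p of 1.8e-05 to 0.00518.

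For the other 9 genes the AG-haESC and E14 arrays overlapped on the brightest probe set, and the test was not passed. On the other kept probe set of Tnnt2 all AG-haESC arrays lay above all E14 arrays. The difference was 2.89 ± 0.923 (SE), with limma's adjusted p = 0.0633 over kept probe sets, and all these signals were below the array medians. Acta2 averaged 10.92 ± 0.863 in AG-haESC, beside 9.18 ± 1.51 in E14, differing by 1.75 ± 0.602 (SE) with limma's adjusted p = 0.0718. Tagln differed by 0.61 ± 0.695, with limma's adjusted p = 0.595. Both depended on E14 replicate 3, the high array of its group. Without it the difference was 2.61 for Acta2 (limma's adjusted p = 0.00289) and 1.70 for Tagln (0.0214), and both were then called. Cnn1 had the opposite sign, at 3.11 ± 1.89 in AG-haESC, beside 6.17 ± 1.41 in E14, differing by -3.05 ± 0.971 and limma's adjusted p = 0.0542. It was called without AG-haESC replicate 2 (-3.44, 0.0463) or without AG-haESC replicate 3 (-3.53, 0.0363). Since every AG-haESC array was below its median for Cnn1, the size of that difference is not well measured. The remaining 6 genes had limma's adjusted p between 0.107 for Actc1 (-1.55 ± 0.605) and 0.796 for Myl1 (0.30 ± 0.644), with 0.188 for Myog, 0.227 for Tnnt2, 0.297 for Des and 0.732 for Myod1. For Myl1 and Myod1 the sign was not settled: Myl1 was at -0.53 without E14 replicate 2, and Myod1 at 0.10 without AG-haESC replicate 1 or without E14 replicate 2.

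Of the fibroblast markers, 2 collagens were set beside the smooth muscle genes, and Vim, among the 2 brightest in MEF, was not. Col1a2, a chain of type I collagen and the brightest fibroblast marker in MEF, read 9.95, 11.86, 11.14, 10.16 and 10.93 in AG-haESC against 7.40, 7.71 and 9.25 in E14. Col3a1, chosen after its values were seen, read 8.74, 10.71, 10.05, 8.90 and 10 in AG-haESC against 6.63, 7.56 and 8.42 in E14. For both collagens, as for Acta2 and Tagln, AG-haESC replicate 2 was the highest AG-haESC array and E14 replicate 3 the highest E14 array. The summed signal of all 15 fibroblast markers was also highest in replicate 2 among AG-haESC (25263), but among E14 it was lowest in replicate 3 (15994, against 18645 and 19916 in replicates 1 and 2). Of 15 fibroblast markers 6 were called higher in AG-haESC than in E14, beside 4.59% of all genes. Feeder cells are named for the AG-haESC culture, and the part of other cells in these signals was not tested.

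**Figure D3:**
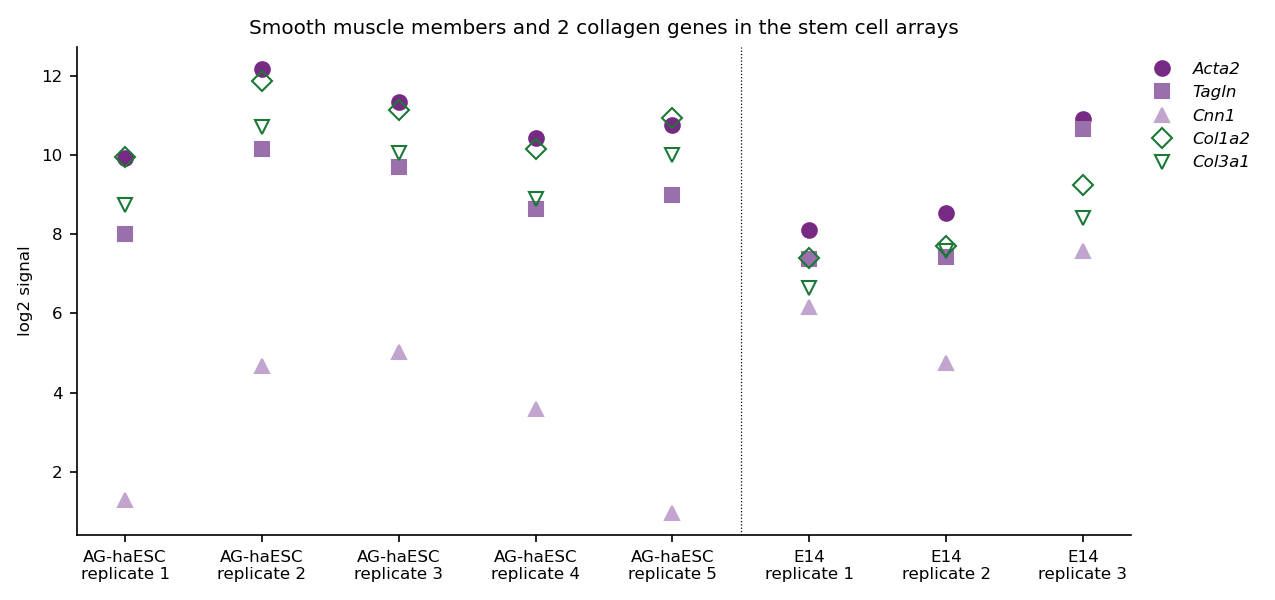
The vertical axis gives the log2 signal of Acta2, Tagln, Cnn1, Col1a2 and Col3a1 in the 5 AG-haESC arrays and then the 3 E14 arrays, with a dotted line between the groups. Acta2, Tagln and both collagens peak at AG-haESC replicate 2 within AG-haESC and at E14 replicate 3 within E14. Col3a1 was chosen after its values were seen.

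The other genes of these pathways were counted from 7 lists that leave out the 10 genes. The 4 skeletal muscle lists held 144 genes, of which 97 were tested. Of these, 47 were higher and 14 lower in MEF than in AG-haESC, 48.5% and 14.4%, beside 22.5% of all genes called higher and 19.7% called lower. Against E14, 42 were higher and 16 lower, beside 21.3% and 20.9% of all genes. The median difference of the 97 genes was 1.19 against AG-haESC and 1.18 against E14. In MEF, 73 of the 97 lay above the median on both arrays and 15 below it on both. The 97 had passed a filter on signals above the median, so nothing is read from those counts. The count called higher fell in both comparisons when either MEF array was left out, where the fit holds a single MEF array. Of the genes called higher, 17 of 47 against AG-haESC and 14 of 42 against E14 lay above the median in the MEF arrays alone. Such genes passed the filter through MEF and had to be brighter there, and over all genes they are 17.4% and 16.3% of those called higher.

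Of the 20 tested regulators of skeletal myogenesis, 13 were higher and 3 lower in MEF than in AG-haESC. Against E14, 12 were higher and 1 lower. Higher were 65% and 60%, beside 22.5% and 21.3% of all genes, and lower 15% and 5%, beside 19.7% and 20.9%. Of those called higher, 8 of 13 and 7 of 12 had passed the filter through MEF alone. Meox1, a homeobox factor of the somites, averaged 9.60 ± 0.328 in MEF, against 3.05 ± 0.422 in AG-haESC and 3.99 ± 1.76 in E14, at least 12.4-fold and at least 11.7-fold. Eya4, a transcriptional partner of homeobox factors, was at least 18-fold and 17-fold higher. Meox2, which acts in limb muscle, was at least 5.60-fold and 5.29-fold higher, and its call against E14 was lost without MEF replicate 1 (4.89 on the log2 scale, limma's adjusted p = 0.0641). Rbm38, an RNA-binding protein, was lower in MEF by 2.01 than in AG-haESC and by 1.85 than in E14 on the log2 scale. Msc (musculin) was not above the median on either MEF array and at least 3.20-fold lower than in AG-haESC, a call lost without MEF replicate 1 (-2.93, limma's adjusted p = 0.110). Against E14 Msc was called only without E14 replicate 2 (-2.61, 0.0422). The count of regulators higher than E14 was 5 without MEF replicate 1 and 6 without MEF replicate 2, and the count lower was 2 without MEF replicate 1, E14 replicate 1 or E14 replicate 2.

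Of 23 genes of myoblast fusion and the muscle membrane, 10 were higher and 5 lower than in AG-haESC. Against E14, 11 were higher and 6 lower, with 1 higher gene in each comparison that had passed through MEF alone. Higher were 43.5% and 47.8%, beside 22.5% and 21.3% of all genes, and lower 21.7% and 26.1%, beside 19.7% and 20.9%. Boc, a cell surface receptor of myoblasts, averaged 10.30 ± 0.638 in MEF, against 5.67 ± 1.00 in AG-haESC and 5.38 ± 2.30 in E14. Ncam1, an adhesion molecule, was higher by 3.64 and 4.34 on the log2 scale, and Myof, which acts in membrane fusion, by 4.30 and 3.19. Among the lower genes were a pair of fusion and adhesion genes. Mymx, the myomixer peptide needed for myoblast fusion, averaged 7.32 ± 0.521 in MEF, against 10.80 ± 0.463 in AG-haESC and 11.25 ± 0.467 in E14. Jam2 averaged 7.60 ± 0.382 in MEF, against 11.66 ± 0.681 in AG-haESC and 10.71 ± 0.146 in E14.

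Of 34 sarcomere genes, 16 were higher and 3 lower than in AG-haESC, and 13 higher and 5 lower than in E14. Higher were 47.1% and 38.2%, beside 22.5% and 21.3% of all genes, and lower 8.82% and 14.7%, beside 19.7% and 20.9%. Of those called higher, 6 of 16 and 5 of 13 had passed through MEF alone. Tnni1, the troponin I of slow fibres, averaged 9.55 ± 0.168 in MEF, against 4.17 ± 1.51 in AG-haESC and 3.22 ± 1.30 in E14, at least 12-fold and 11.3-fold. Mybph, a myosin-binding protein, was at least 2.31-fold and 2.18-fold higher. Tnni2, the troponin I of fast fibres, was at least 1.79-fold and 1.69-fold higher, and its call against AG-haESC was lost without MEF replicate 1 (3.73, limma's adjusted p = 0.0672) or MEF replicate 2 (3.97, 0.0539). Tnni2 and Mybph thus lay only a little above the array median in MEF. Trim54, a ubiquitin ligase of the sarcomere, was at least 2.32-fold lower than in AG-haESC and at least 1.21-fold lower than in E14. Myh7b, a slow myosin heavy chain, averaged 3.49 ± 1.70 in MEF and 5.32 ± 0.634 in AG-haESC, both below background and without a call, and was at least 1.13-fold lower than in E14. That call of Myh7b was lost without MEF replicate 1 (-1.47, limma's adjusted p = 0.185), E14 replicate 1 (-2.40, 0.0505) or E14 replicate 2 (-2.34, 0.0526), and one against AG-haESC was gained without MEF replicate 2 (-3.03, 0.0135), AG-haESC replicate 3 (-2.08, 0.0368) or E14 replicate 3 (-1.83, 0.0322). Without either MEF array the sarcomere count higher than AG-haESC was 10. Without MEF replicate 1 the counts lower were 1 against AG-haESC and 3 against E14, and the count against E14 was also 3 without E14 replicate 1 or 2.

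Of 20 genes of excitation-contraction coupling and muscle metabolism, 8 were higher and 3 lower than in AG-haESC. Against E14, 6 were higher and 4 lower. Higher were 40% and 30%, beside 22.5% and 21.3% of all genes, and lower 15% and 20%, beside 19.7% and 20.9%. The shares against E14 lay near those of all genes, so nothing is read from them. Medians were 0.34 and -0.065, and 2 and 1 of the higher genes had passed through MEF alone. Cacna2d1, a calcium channel subunit, averaged 10.27 ± 0.295 in MEF, against 6.67 ± 0.420 in AG-haESC and 6.19 ± 0.194 in E14. Jph2, which joins the surface membrane to the calcium store, was higher by 3.82 than AG-haESC on the log2 scale and at least 4.15-fold higher than E14. Cox6a2, the muscle form of a cytochrome oxidase subunit, was higher by 2.92 and 2.54. Cox7a1, another muscle form of that complex, was at least 19.6-fold lower in MEF than in AG-haESC and at least 19.1-fold lower than in E14. Fabp3, the fatty acid binding protein of heart and muscle, averaged 9.97 ± 0.0235 in MEF, against 14.28 ± 0.321 in AG-haESC and 13.02 ± 0.890 in E14. Without MEF replicate 1 the count higher than AG-haESC was 5, and without MEF replicate 2 it was 4.

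Of 38 tested genes of the smooth muscle contractile list, 29 were higher and 1 lower in MEF than in AG-haESC, and 28 higher and 0 lower than in E14. These were 76.3% and 73.7% higher, beside 22.5% and 21.3% of all genes, with medians of 2.28 and 2.78, and 3 of those called higher in each comparison had passed through MEF alone. Actg2, the enteric smooth muscle actin, averaged 12.43 ± 0.259 in MEF, against 6.20 ± 0.888 in AG-haESC and 5.05 ± 0.882 in E14, at least 83.6-fold over E14 and higher by 6.22 than AG-haESC on the log2 scale. Mylk, the kinase of the smooth muscle light chain, averaged 11.11 ± 0.00909 in MEF, against 5.13 ± 0.675 in AG-haESC and 5.06 ± 0.488 in E14, at least 35.4-fold and 33.5-fold. Filip1l was higher by 6.18 than AG-haESC and at least 59.3-fold higher than E14. The exception was Ppp1r14a, the inhibitor of myosin phosphatase (CPI-17), which averaged 7.74 ± 0.0548 in MEF, against 9.67 ± 0.668 in AG-haESC and 8.74 ± 0.402 in E14. It was called lower against AG-haESC (limma's adjusted p = 0.00117) and not against E14 (0.0641), though it was without E14 replicate 3 (-1.22, 0.0316) and under some other settings, each of which made the count lower 1. In the limma fit, 2 genes of the list had an unadjusted p below 0.05 and a lower mean than E14. Of the 8 pericyte markers given above, 5 were called higher in MEF than in AG-haESC and 4 than in E14, with 0 lower. For AG-haESC minus E14, the median difference was -0.82 for the pericyte markers and 0.20 for this list. The part of pericytes in this list was not tested.

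Of 29 genes of SRF, myocardin and TGF-beta control, 15 were higher and 1 lower than in AG-haESC. Against E14, 13 were higher and 0 lower, and the medians were 1.20 and 0.77. Higher were 51.7% and 44.8%, beside 22.5% and 21.3% of all genes, and lower 3.45% and 0%, beside 19.7% and 20.9%. At an unadjusted p below 0.05 in the limma fit, 0 were lower than in E14. In each comparison 3 of those called higher had passed through MEF alone. Tgfb3, a TGF-beta ligand, averaged 12.26 ± 0.0849 in MEF, against 3.85 ± 1.25 in AG-haESC and 2.12 ± 1.33 in E14, at least 78.8-fold and 74.5-fold. Tgfbr2, the type II receptor of that pathway, was higher by 5.30 and 5.98 on the log2 scale, and Prrx1, a homeobox factor of mesenchyme, by 6.68 and 7.75. Tead4, a partner of YAP, was below the median in both MEF arrays and at least 2.52-fold lower than in AG-haESC, with no call against E14 (-0.65, limma's adjusted p = 0.149).

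Of 17 heart muscle genes, 4 were higher and 5 lower in both comparisons, with medians of -0.14 and -0.18. These are 23.5% higher and 29.4% lower, beside 22.5% and 19.7% of all genes against AG-haESC and 21.3% and 20.9% against E14. With a floor at the array median, 2 were higher and 2 lower than in AG-haESC, and 2 higher and 3 lower than in E14. In each comparison 2 of those called higher had passed through MEF alone. Cacna1c, the L-type calcium channel of heart and smooth muscle, was at least 4.78-fold and 4.52-fold higher in MEF. Slc8a1, the sodium-calcium exchanger, was at least 1.61-fold and 1.52-fold higher, and its call against AG-haESC was lost without MEF replicate 1 (4.03, limma's adjusted p = 0.108) or MEF replicate 2 (4.15, 0.0999), and that against E14 without MEF replicate 1 (5.40, 0.0501). Tbx5, a factor of heart and forelimb, was higher by 3.56 than AG-haESC on the log2 scale. Only 1 AG-haESC array exceeded its median for Tbx5, and with the floor the difference was 0.95, below 2-fold. Against E14 Tbx5 was not called (1.66, limma's adjusted p = 0.160), though it was without AG-haESC replicate 1 (0.0406) and under some other settings. Myl7, the atrial light chain, averaged 2.12 ± 0.132 in MEF, against 7.79 ± 0.501 in AG-haESC and 7.94 ± 0.523 in E14, at least 3.48-fold and 3.88-fold lower in MEF. Myh6, a heart myosin heavy chain, was at least 2.21-fold lower in MEF than in E14, and was below background in both MEF and AG-haESC.

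**Figure D4:**
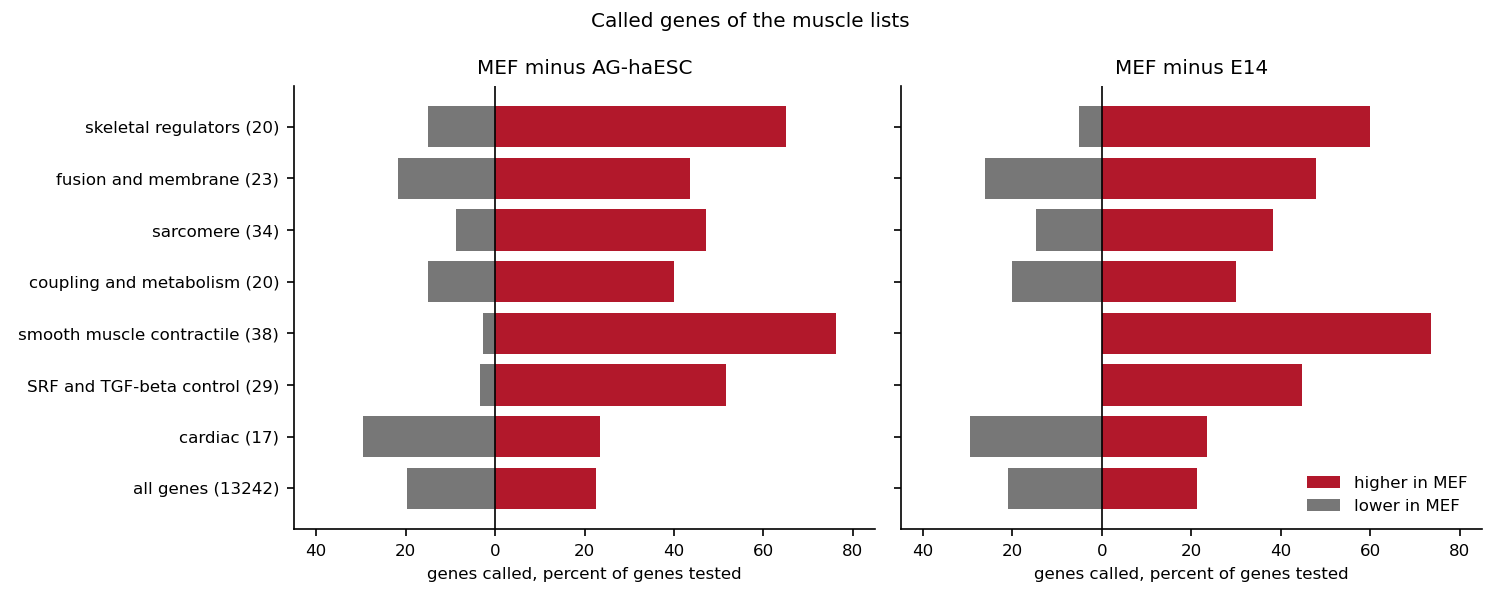
Bars give the percent of tested genes of each muscle list called higher in MEF (right of 0) and lower in MEF (left of 0), for MEF minus AG-haESC and MEF minus E14, with all genes as the last bar. The smooth muscle list reaches 76.3% and 73.7% higher, and the heart list 23.5% in both.

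**Figure D5:**
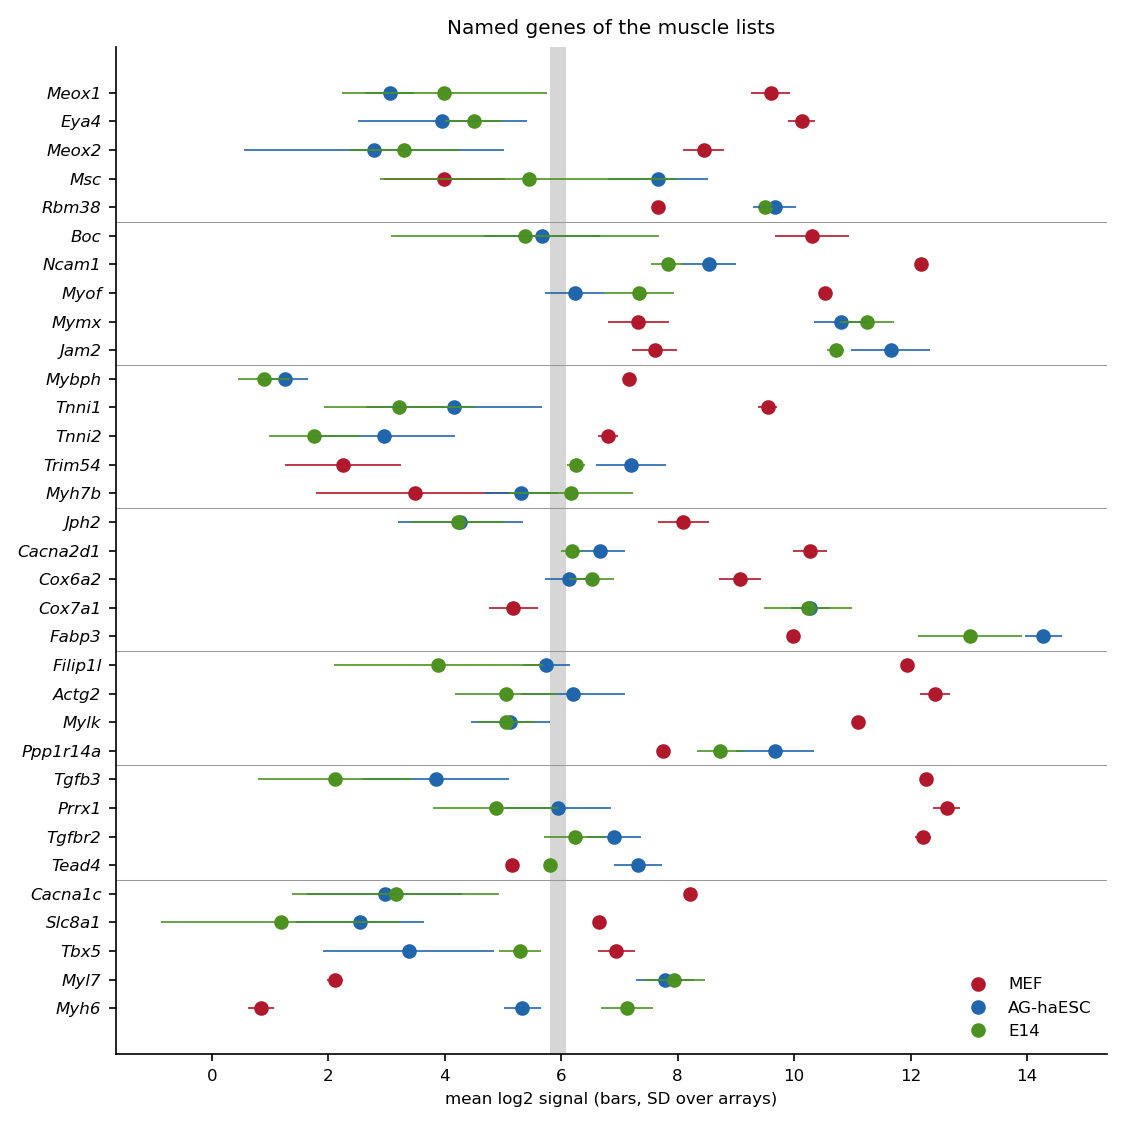
Points give the mean log2 signal of each named list gene in MEF, AG-haESC and E14, bars the SD over arrays, and the grey band the range of the array medians, 5.81 to 6.09. MEF means such as those of Meox1, Mylk and Tgfb3 lie right of the band while their stem cell means lie left of it, and Cox7a1 and Myl7 show the opposite order.

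Between the kinds of stem cell fewer genes of the lists were called, as over all genes, where 8.33% were called in either direction. Of the 97 skeletal genes, AG-haESC had 4 higher (4.12%) and 8 lower (8.25%) than E14, beside 4.59% and 3.74% of all genes. Without MEF replicate 1 or 2, AG-haESC replicate 2, 3 or 5, or E14 replicate 2 the count higher was 2, and without E14 replicate 1 or 2 the count lower was 4. Of the 38 smooth muscle genes 4 were higher, Csrp1 (1.49, limma's adjusted p = 0.000244), Fhl1 (1.06, 0.0303), Fhl2 (1.15, 0.0159) and Tns1 (1.12, 0.0337), and 1 was lower, Nexn (-1.58, 0.0203), all named after their values were seen. The count of 4 was 2 without E14 replicate 1, 1 without E14 replicate 2 and 9 without E14 replicate 3. The call of Nexn was lost without E14 replicate 2 and without E14 replicate 3, which left a count of 0 lower by limma.

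Likeness of pattern was measured as the root mean square distance between gene-centred log2 signals over the 10 arrays, to the mean profile of each role group. For Acta2, Tagln and Cnn1 the closest genes were Kcnab1 (0.42), Emp3 (0.55), Prr32 (0.63) and Mmp14 (0.66), where the 3 genes themselves lay 0.52 to 1.48 from their mean. For Actc1, Des and Tnnt2 they were Tmem98 (0.27), Igf1r (0.28), Prnp (0.29) and Ltbr (0.31), where the members lay 0.72 to 0.94 away. For Myod1, Myog, Myl1 and Mylpf they were Smim10l1 (0.26), Cdo1 (0.27), Gskip (0.28) and Steap2 (0.28), but that mean mixes Mylpf with genes of the opposite pattern, and its members lay 0.74 to 1.87 away. In a search gene by gene, added after the values were seen, Myl9, the smooth muscle light chain, was among the 2 closest to Tagln (0.43, beside 0.42 for Cav1), and Porcn was the closest to Mylpf (0.21). Among the 10 genes the closest pair was Acta2 and Tagln (0.59), and Mylpf lay 1.73 to 4.22 from the others. These distances are a description of 10 arrays in 3 groups.

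Some neighbours on the chromosome are muscle genes too. By gene order on GRCm38.p6, Speg, a kinase of striated muscle, is the next gene after Des, and it averaged 9.83 ± 0.0764 in MEF, against 5.47 ± 0.132 in AG-haESC and 6.72 ± 0.556 in E14 (limma's adjusted p = 5.42e-07 and 1.67e-05). Mybph lies 2 places from Myog and Tnni1 2 places from Tnnt2, with the values given above. Of the genes on either side of Mylpf, Tbc1d10b had differences of -0.74 from AG-haESC and -0.30 from E14, without a call, and Septin1 was called lower in MEF in both comparisons. Stambpl1 and Fas, on either side of Acta2, were called higher in MEF in both, Stambpl1 by 2.78 over AG-haESC and 2.70 over E14 on the log2 scale. Other neighbours of genes higher in MEF were called lower there. Cps1 near Myl1 was at -2.38 from AG-haESC and -3.90 from E14, and Acp5 near Cnn1 at -3.05 and -2.67. Ppfia4 beside Myog (-2.32) and Lad1 beside Tnnt2 (-3.24) were lower than in E14. Over all genes 22.5% and 21.3% were called higher and 19.7% and 20.9% lower. Shared control of neighbours was not tested.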

How the data were processed

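RNA of 10 arrays in 3 groups was read, 2 MEF, 5 AG-haESC and 3 E14. The authors deposited signal intensities per probe set on a linear scale, made with MAS5 per the submitters' processing notes, and each array was scaled to the same 2% trimmed mean. Scaling fixes each array's mean, so a change in total RNA per cell is not visible. The sources used here give neither the software version nor the scanner. The number of arrays limits the precision.

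Signals were taken to log2. Of the probe sets, 64 were controls, 34945 had 1 gene symbol in the platform annotation, 932 had several and 9160 had none listed. Probe sets above their own array's median in at least 2 arrays were kept, which left 27476, and the brightest of these stood for its gene, giving 13242 genes. Limma 3.58.1 in R 4.3.3 fitted 3 group means with lmFit and eBayes with a trend (7 residual degrees of freedom), two-sided, with Benjamini-Hochberg adjustment over all genes. A call asks for an adjusted p below 0.05 and a difference of at least 2-fold. The steps were tested on simulated data.

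The members, the 7 muscle lists and the 8 marker lists were chosen with earlier results of these data known. Named were the 10 members with every probe set, per list the 3 called genes with the largest mean difference up and the 2 with the largest down, the 4 genes nearest in pattern to each role group, and the 2 brightest markers in MEF. Alternatives were the mean of probe sets, no filter, a floor at the array median, a pseudocount of 32, quantile normalization, no trend, array weights, only the groups compared, the replicate block and leaving out each array.

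For the marker lists not shown in the report, the summed linear signal was 1343 and 2377 in MEF, against 6521 to 8996 in AG-haESC and 9204 to 14051 in E14, for neural markers. It was 1799 and 1682 in MEF, against 1356 to 2054 and 1261 to 2281, for cartilage and bone markers. It was 622 and 1042 in MEF, against 13222 to 17055 and 14574 to 19796, for epithelial markers. The brightest 2 in MEF were Col1a2 and Vim (fibroblast), Pdgfrb and Rgs5 (pericyte), Emcn and Erg (endothelium), Lyz2 and Cd14 (macrophage), Gap43 and Sox10 (neural), Col2a1 and Col9a1 (cartilage and bone), Krt18 and Krt8 (epithelium) and Sox2 and Esrrb (pluripotency).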

Additional observations from a re-analysis of the deposited data

Results flagged for a closer look

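Of 16 probe sets by group checked, 1 array stood apart from the rest of its group by Dixon's criterion, which chance alone meets in about 1 of 20 groups. It is AG-haESC replicate 2 on the fainter kept probe set of Acta2, with a log2 signal of 3.80 against 0.87 to 1.46 in the other 4 AG-haESC arrays. All 5 values lie below the array medians. The same array was also the highest of its group on the brightest Acta2 probe set, on Tagln and on Col1a2.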

How the results depend on the processing

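Mylpf kept its call between AG-haESC and E14 under every alternative tried. The number of members called there, 1, was 2 with the mean of probe sets (which added Tnnt2) or a pseudocount of 32 (which added Cnn1), 4 with array weights (which added Acta2, Tagln and Cnn1), and 1 to 3 with an array left out. With the floor at the array median the signs turned for Myl1 (-0.081) and Tnnt2 (-0.081) in AG-haESC minus E14, and for Myh6 (0.027) and Myh7b (0.027) in MEF minus AG-haESC, where both groups are below background. Myl1 was at -0.018 with a pseudocount of 32, and it ran from -0.53 to 1.15 with an array left out, as Myod1 did from -0.80 to 0.10. The median of the members in MEF minus AG-haESC was 4.67 with the mean of probe sets, 3.60 with the floor and 3.57 with the pseudocount, and in MEF minus E14 it was 3.52 with the floor and 3.60 with the pseudocount. The heart list had 2 genes higher in each comparison with the floor, and 2 and 3 lower, and the skeletal lists had 30 to 49 genes higher than AG-haESC with an array left out. The floor also ended the call of Trim54 against E14 (-0.27, limma's adjusted p = 0.554), and the mean of probe sets that of Jph2 against E14 (1.63, limma's adjusted p = 0.0528). Below 2-fold with the floor, and so no longer called, were Tbx5 against AG-haESC (0.95) and Myh7b against E14 (-0.56). The same held in both comparisons for Slc8a1 (0.68 and 0.60) and Tnni2 (0.84 and 0.76). Without the filter Slc8a1 was at 0.35 and 0.043 (limma's adjusted p = 0.720 and 0.970), and Tnni2 against E14 at 1.16 (0.398), so these calls were lost. There the brightest of all probe sets stood for its gene. For Slc8a1 and Tnni2 this was another probe set than with the filter, and it did not show the called difference. Against E14, Tbx5 was called with a pseudocount of 32 (1.12, limma's adjusted p = 0.0238) and with only the compared groups (1.66, 0.0205), and Ppp1r14a with quantile normalization (-1.18, 0.0252) and array weights (-1.16, 0.00428). The cause of the other shifts was not tested. The deviations of MEF and E14 arrays of the same replicate number had r = -0.023 across 13242 genes, which are not independent replicates. With 1 difference of replicates per group, this value cannot settle whether replicate numbers pair the samples. With the replicate block on the 4 arrays numbered 1 and 2, 5617 genes were called in MEF minus E14, against 5695 without it on those arrays, a fit added after the data were seen, and 5581 on all arrays, and the median of the members was 4.41 with it. Tbx5 and Ppp1r14a were called against E14 on those 4 arrays both with the block (1.49 and -1.22) and without it. Signals near the array median limit Myod1, Tnni2, Mybph and Cnn1.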
